A study of Homo sapiens with 12 samples.

Results

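The regions described here are narrow acetylated-RNA peaks that lie near the ends of protein-coding genes in the cholangiocarcinoma cell line RBE. A peak was taken when it was at most 1000 bp wide, overlapped the span of exactly 1 annotated gene, that gene was protein-coding, and the peak's midpoint lay in the last 10% of the span, read in the direction of the peak's own strand. The rule took 8904 of the 62412 peaks in both lists together. Of these, 5609 came from the 34365 peaks of the control list and 3295 from the 28047 peaks of the knockdown list. RBE is an established human line of intrahepatic cholangiocarcinoma, a cancer of the bile ducts within the liver. The control arm is labelled sh-NC, a control hairpin, and the knockdown arm sh-NAT10, a hairpin against NAT10 delivered by lentivirus and kept under puromycin, from which resistant colonies were expanded as a stable line. The labels describe only the sh-NAT10 virus, and both arms share the line and the culture medium. Each arm has 3 immunoprecipitates and 3 inputs, 12 libraries in all, but the deposited data are 1 peak list per arm. No replicate spread can be computed from them, so every comparison of the arms is between 2 lists and carries no test.

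N4-acetylcytidine (ac4C) is a cytidine with an acetyl group on its base, and NAT10 is the enzyme that writes it. It is well established in ribosomal and transfer RNA, and its extent in messenger RNA has been debated. In acRIP-seq, RNA is fragmented, fragments are pulled down with an antibody against ac4C, and a peak marks a stretch where the pulled-down fragments pile up. The end of a gene span usually holds the last exon, with the end of the coding sequence and the 3′ untranslated region. The labels give the molecule as polyA RNA in 1 field and total RNA in the protocol, so which of these was sequenced is unsettled. Exons are not part of the annotation at hand, so whether a peak lies in an exon, an intron or an untranslated region was not read.

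A few peaks can be shown in bases. Sequence was at hand only where a peak fell in a RefSeq window around an annotated gene start (GRCh38.p14), which held for 18 control and 20 knockdown peaks. For the peaks shown, that start belongs to another gene on the opposite strand, LOC101927741 for SPATS2L and PCDH9-AS1 for PCDH9. Each is 25 bp wide, the narrowest width, where the medians were 100 bp for control and 75 bp for knockdown gene-end peaks. Cytidines, the base that can carry the acetyl group, are in capitals, and each sequence is read 5′ to 3′ on the strand of the peak. SPATS2L, a gene of 176386 bp on the plus strand, has 25-base peaks at chr2:200478062-200478086 and chr2:200478137-200478161 in the control list and at chr2:200478087-200478111 in the knockdown list. They are shown because the knockdown peak begins on the base after the first control peak ends, so by an overlap of 1 bp neither is shared.
SPATS2L control, first: gttttggttCCCtgCCCgaggtgCt
SPATS2L knockdown: gaCCCaattCgCtgCCaaaagagtg
SPATS2L control, second: tggttgtgtCatCCtCtCttaatCa
The 3 peaks hold 7, 7 and 6 cytidines of 25 bases. PCDH9, a protocadherin gene of 927503 bp on the minus strand, is shown as an example of the long genes described below. Its 2 control peaks at chr13:66303809-66303833 and chr13:66303734-66303758 lie 987 and 912 bp from the span's end, and the knockdown list has no narrow peak in the gene.
PCDH9 control, first: tgaaaaCtttataCaaaaaaggaCt
PCDH9 control, second: aagtaggCaaaagCaaaatCaCtta
They hold 3 and 4 cytidines.

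The first comparison asks how large a share of narrow peaks lay at gene ends in each arm. In the control list 5609 of 18347 narrow peaks inside 1 protein-coding gene lay in the last 10% of the span, 30.6% (95% Wilson interval 29.9 to 31.2). In the knockdown list 3295 of 14619 did, 22.5% (21.9 to 23.2). These intervals cover counting error only and treat peaks as independent, which they are not. In bins of 10% of the span, the share was higher in each bin than in the one before it from the third bin on in both lists, from 4.13% to 13.7% in the ninth bin of the control list and from 4.39% to 15.1% on the knockdown side. The lists differed mainly in the last step. In the first bin, at the gene start, the order was the other way, with 7.23% of control and 9.08% of knockdown peaks.

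**Figure D1:**
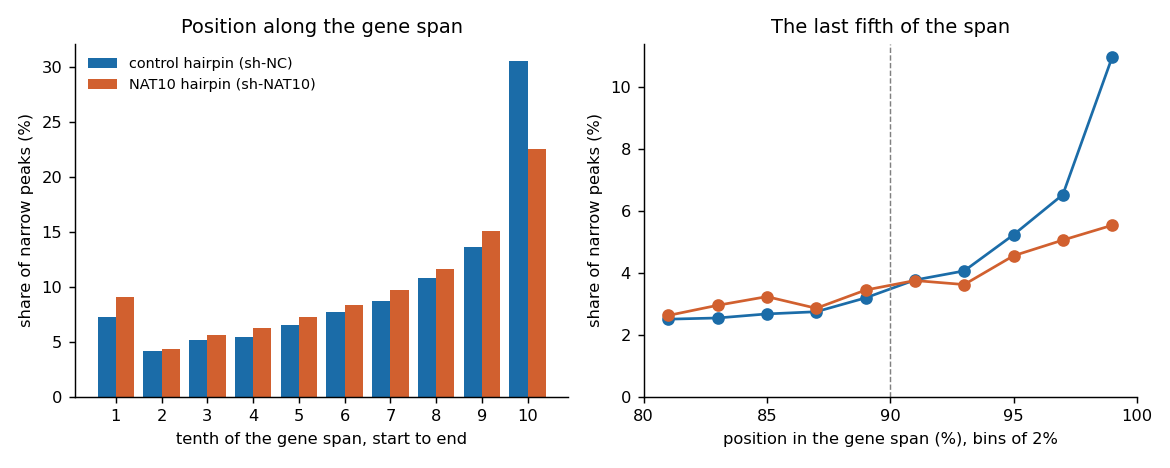
Share of narrow peaks by position in the gene span, for each list. The left panel gives bins of 10% of the span as percent of all narrow peaks in 1 protein-coding gene, and the right panel gives bins of 2% over the end of the span. The lists run close together until the last 10%, where the control list reaches 30.6% and the knockdown list 22.5%, and in the last bin 11.0% against 5.54%.

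Within the last 10%, the arms separated towards the annotated end. Between 90% and 92% of the span the shares were 3.77% (692 control peaks) and 3.76% (549 knockdown peaks). In the final 2% they were 11.0% (2013 peaks) and 5.54% (810 peaks). The position limit of the rule falls in the flat stretch. In the 1% of the span just outside it lay 313 control and 267 knockdown peaks, and in the 1% just inside it 322 and 279. The width limit touches few peaks, with 55 control and 45 knockdown peaks over 900 and up to 1000 bp kept and 53 and 26 over 1000 and up to 1100 bp left out.

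The length of the gene went with this difference. In genes of up to 5000 bp the end held 11.0% of narrow control peaks and 10.9% of knockdown peaks, with intervals of 9.17 to 13.2 and 8.93 to 13.3. Over 5000 and up to 20000 bp the shares were 16.2% and 15.5%, again with overlapping intervals. Up to 50000 bp they were 26.1% and 23.2%, and up to 100000 bp 33.2% and 25.1%. In genes of over 100000 bp they were 43.3% (42.0 to 44.5) and 28.8% (27.4 to 30.3). The intervals of the lists overlapped in genes of up to 20000 bp and in no longer class, and the gap widened with each step in length.

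**Figure D2:**
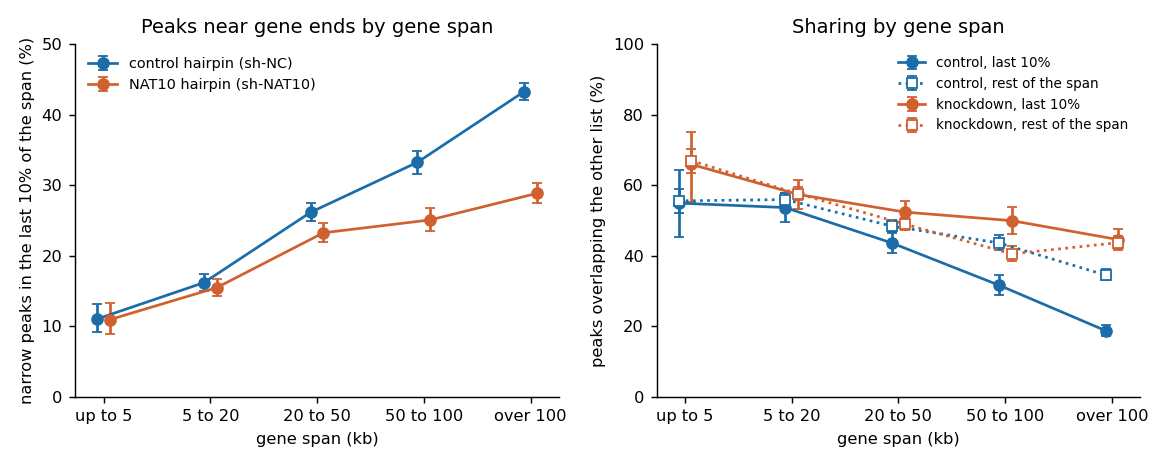
By length of the gene span, with 95% Wilson intervals (counting error only): left, share of narrow peaks that lie in the last 10% of the span, and right, share of peaks that overlap a peak of the other list, for the last 10% (filled) and the rest of the span (open). On the left control and knockdown overlap for genes of up to 20000 bp and part above that, reaching 43.3% and 28.8% for genes of over 100000 bp, and on the right the control gene ends are lowest there, at 18.8%.

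In numbers of peaks, the control list held 2314 more gene-end peaks than the knockdown list, and 71.7% of that difference (1659 peaks) lay in genes of over 100000 bp. For every 100 control peaks at the ends of those long genes there were 39.5 knockdown peaks, and in the rest of the same span class 74.3. For genes over 5000 and up to 20000 bp the figures were 91.7 and 96.7. The last 10% of a long span is a long stretch, so distance in bases was also used. Within 2000 bp of the end of genes over 100000 bp lay 825 of 6337 narrow control peaks in those genes and 220 of 3753 knockdown peaks (5.86%). In shorter genes 2907 of 12010 (24.2%) and 2393 of 10866 (22.0%) did. With every gene's end defined as its last 2000 bp, the end shares were 20.3% and 17.9%, so the difference kept its direction but was smaller.

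Genes represented in both lists showed a smaller difference than genes represented in 1. In genes with a narrow peak in both lists, the end held 27.1% of control and 23.2% of knockdown narrow peaks. In genes with narrow peaks in the control list only it held 41.6%, and in those with knockdown peaks only 17.7%. Among peaks without an overlapping peak in the other list, 36.1% of the control and 22.2% of the knockdown peaks were at gene ends. The shared peaks hold nearly the same positions in both lists by definition, so their end shares of 22.6% and 22.9% are no separate result.

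The second comparison asks how far the gene-end peaks of each list recur in the other. A peak was called shared when any peak of the other list covered at least 1 bp of it on the same strand. Of the control gene-end peaks 1708 of 5609 were shared, 30.5% (29.3 to 31.7), and 3901 (69.5%) were not. Over all narrow control peaks in 1 protein-coding gene, 58.8% were not shared. Of the knockdown gene-end peaks 1662 of 3295 were shared, 50.4% (48.7 to 52.1), and 1633 (49.6%) were not, beside 50.3% over all narrow knockdown peaks. Of the other narrow control peaks 45.9% were shared, and of those at gene starts 55.7%, so control gene ends had the lowest of the 3 shares. In the knockdown list gene ends, the rest and gene starts were close together, at 50.4%, 49.5% and 52.9%. The numbers of shared gene-end peaks were close in the lists, 1708 and 1662. The lower control percentage thus goes with the larger number of control gene-end peaks and is not a result separate from it.

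**Figure D3:**
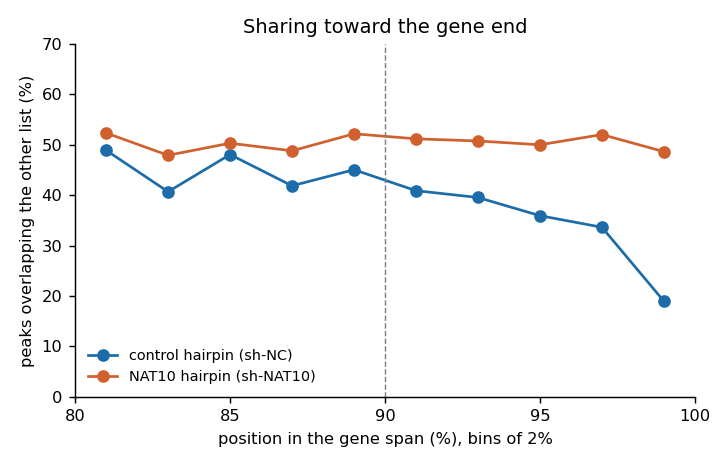
Share of narrow peaks that overlap a peak of the other list by at least 1 bp on the same strand, in bins of 2% of the span. The dashed line marks the start of the last 10%, and past it the control list goes from 40.9% to 18.98% and the knockdown list stays between 48.6% and 52.0%.

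Sharing of control peaks was lower in each 2% bin along the end of the span, from 40.9% at 90% to 92% of the span to 18.98% in the final 2%. In the knockdown list it stayed between 48.6% and 52.0% over the same 5 bins. Gene length again went with it. Control gene ends were shared in 54.9% of cases in genes up to 5000 bp, 53.6% up to 20000 bp, 43.6% up to 50000 bp, 31.7% up to 100000 bp and 18.8% over 100000 bp. Knockdown gene ends went from 65.9% through 57.4%, 52.3% and 49.9% to 44.5%. The rest of the span showed a length trend too, from 55.5% in the shortest to 34.5% in the longest class of the control list and from 66.9% to 43.7% in the knockdown list. In the final 2% of genes over 100000 bp, 178 of 1426 control peaks were shared (12.5%) and 181 of 386 knockdown peaks (46.9%). In the last 2000 bp of these genes the values were 11.8% and 45.5%, and in the last 2000 bp of shorter genes 48.5% and 58.9%. With the last 2000 bp as the end in every gene, control ends were shared 40.4%, only 1.0 percentage points below the rest, and knockdown ends 57.7%, 9.8 points above it. These values pool short and long genes. In genes over 100000 bp alone, control sharing was 11.8% within 2000 bp of the end and 33.5% beyond 10000 bp from it, and in shorter genes 48.5% and 47.7%.

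Where a gene-end peak was not shared, the other list often still marked the gene. Of the 3901 unshared control peaks, 1144 (29.3%) lay in a gene with a knockdown peak elsewhere in its last 10%, 938 (24.0%) in a gene with a narrow knockdown peak further up, 750 (19.2%) in a gene touched only by wide knockdown peaks or peaks over several genes, and 1069 (27.4%) in a gene with no knockdown peak. For the other unshared narrow control peaks the classes held 24.3%, 39.9%, 11.9% and 23.9%. Of the 1633 unshared knockdown peaks they held 917 (56.2%), 402 (24.6%), 108 (6.61%) and 206 (12.6%), beside 35.0%, 40.0%, 8.23% and 16.7% of the other unshared knockdown peaks. Near misses like SPATS2L were a minority: 236 unshared control peaks (6.05%) and 249 unshared knockdown peaks (15.2%) had a peak of the other list within 100 bp, beside 11.4% and 13.4% of the other unshared narrow peaks. Of the shared peaks, 394 had the same first and last base in both lists.

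The score is the authors', and no source used here states its scale. Scores of the same place in both lists are given side by side as deposited, and whether they are comparable between the lists is unknown. The median was 11.7 for control and 11.8 for knockdown gene-end peaks, just above a lower edge near 10. A score of 20 or more was held by 321 control gene-end peaks (5.72%, against 8.64% of the other narrow peaks) and by 232 knockdown ones (7.04%, against 11.4%). Most gene-end peaks of either list thus sat near the lower edge. Sharing was higher at higher scores in both lists, from 21.9% at scores of 10 to 11 to 68.4% of 19 peaks at 50 or more in the control list, and from 34.6% to 82.6% of 23 peaks in the knockdown list. For the other narrow peaks it went from 32.5% to 92.4% in the control and from 34.4% to 77.6% in the knockdown list. Median widths were 100 bp and 75 bp, and 88.4% and 81.3% of the widths were multiples of 25 bp. The narrowest peaks, of 25 bp, made up 20.2% of control and 27.5% of knockdown gene-end peaks, and 40.0% of the unshared knockdown ones. The other narrow peaks had median scores of 12.0 and 12.1 and a median width of 100 bp in both lists. Among them 19.7% of control and 21.6% of knockdown peaks were 25 bp wide.

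The third comparison is by gene. Control gene-end peaks fell in 2836 genes and knockdown ones in 1930, with 1315 genes in both and 3451 in either. Of the genes with a control gene-end peak, 1521 had no knockdown gene-end peak, 53.6% (51.8 to 55.5). Over whole spans, 33.4% of genes with a narrow control peak had no narrow knockdown peak, and for the span outside the last 10% 33.1%. Of the genes with a knockdown gene-end peak, 615 had no control gene-end peak, 31.9% (29.8 to 34.0), beside 23.6% over whole spans and 27.4% outside the last 10%. Among the 1521 control-only genes, 584 had a narrow knockdown peak elsewhere in the span. Among the 615 knockdown-only genes, 341 had a narrow control peak elsewhere. These gene counts use narrow gene-end peaks only. The same 1315 genes count as common for both lists, so the list with more genes must have the higher share without a counterpart. Of the shared peaks, 201 control and 143 knockdown ones overlapped most with a peak of the other list that was not a gene-end peak.

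More genes had a higher number of gene-end peaks in the control list (1891 genes, 54.8% of 3451, beside 48.5% for narrow peaks anywhere in the span) than in the knockdown list (943 genes, 27.3%, beside 34.3%), and 617 had equal numbers. Large differences were nearly all in 1 direction. The control list had a surplus of 5 or more peaks in 113 genes and the knockdown list in 3 genes, KANSL1 (2 control and 8 knockdown peaks), NFIX (4 and 9) and RALGDS (3 and 9). The control list also has more narrow peaks in all, 18347 against 14619. The same count for the rest of the span was not made, so how far the direction is particular to gene ends was not tested. KANSL1 encodes a subunit of a histone acetyltransferase complex, and it is named after its values were seen. The 113 genes, chosen by this count, held 803 control and 36 knockdown gene-end peaks, and 207 and 100 narrow peaks in the rest of their spans. Of them 99 span over 100000 bp, 91 had no knockdown gene-end peak and 70 no narrow knockdown peak at all. Together they account for 33.1% of the difference of 2314 peaks.

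**Figure D4:**
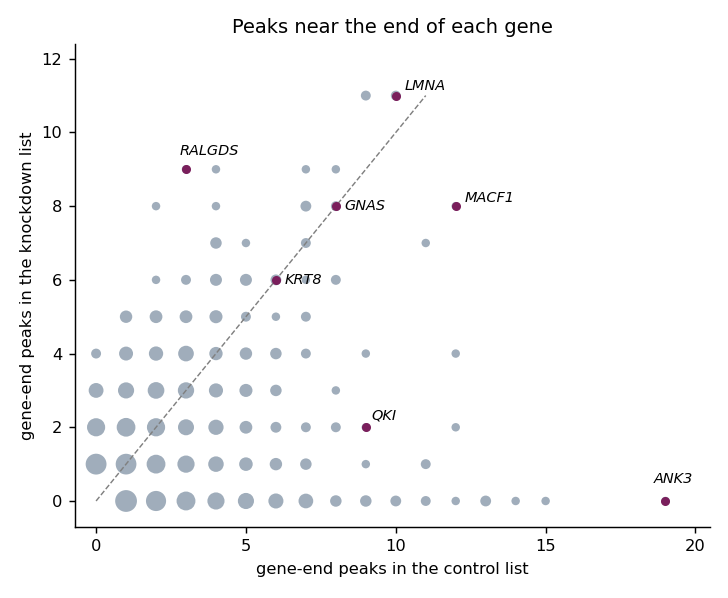
Number of narrow gene-end peaks per gene, control on the horizontal and knockdown on the vertical axis, with dot area growing with the log of the number of genes at that pair of counts, named genes marked and a dashed line at equal counts. Points reach 19 control peaks at 0 knockdown peaks (ANK3) along the horizontal axis, and genes with many knockdown peaks such as LMNA (10 and 11) lie near equality.

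The genes with the most control gene-end peaks were large and mostly empty in the knockdown list. ANK3, which encodes the membrane scaffold ankyrin-G, had 19 control gene-end peaks with scores of 10.1 to 16.5 over 47981 bp of chromosome 10 (hg38), and no narrow knockdown peak. ZFHX4, a homeobox transcription factor, had 14 and 0 and ANK2, ankyrin-B, had 13 and 0. The receptor phosphatase gene PTPRD and NEXMIF, named for neurite extension and migration, each had 13 and 0, and ARHGAP32, which encodes a GTPase-activating protein, had 12 and 0. MACF1, which crosslinks microtubules and actin, behaved differently, with 12 control peaks of which 7 were shared, and 8 knockdown peaks of which 6 were. Its highest peak, chr1:39458363-39458512, had the same bounds in both lists, with scores of 36.6 and 186.

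The genes with the most knockdown gene-end peaks had nearly as many in the control list. LMNA, the gene of the nuclear lamins A and C, had 10 control and 11 knockdown peaks, 9 of them shared on each side, along the last 4777 bp of its span. SEPTIN9, a cytoskeletal GTPase gene, and PLEC, the cytolinker plectin, each had 9 and 11. NFIC, a nuclear factor I gene, had 10 and 11. In ANKRD11, a chromatin regulator, the counts were 7 and 9 with 3 shared on each side. RALGDS, an exchange factor for Ral GTPases, and NFIX stand out in this group by their surplus, with 3 and 9 peaks and with 4 and 9. In both, most of the knockdown peaks were unshared (6 of 9 and 5 of 9).

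Of the 19 control gene-end peaks scored 50 or more, 13 were shared (68.4%), beside 85 of 92 other narrow control peaks of such scores (92.4%). Of the 23 such knockdown gene-end peaks 19 were shared (82.6%), beside 111 of 143 others (77.6%). The genes in this paragraph were ranked by the control score of a shared peak, so that their peaks recur follows from the choice. GNAS, the stimulatory G protein alpha subunit, had 8 control and 8 knockdown peaks and all were shared. Its control scores were 14.4, 22.6, 105, 64.6, 36.7, 42.2, 270.4 and 34.3 along the gene, and the matching knockdown scores were 57.8, 44.6, 106, 162, 36.5, 29.7, infinite and 29.1. Of these 8 pairs 7 had identical bounds, and the 270.4 and the infinite score belong to the same interval, chr20:58910322-58910421. The top LMNA peak, chr1:156136916-156137040, scored 96.0 and 95.1 and had the same bounds in both lists. In GPI, a glycolytic enzyme, 4 peaks in each list were shared, with top scores of 57.8 and 55.9. GNB1, a G protein beta subunit, topped at 63.2 and 55.5, and TAF15, an RNA-binding protein, at 59.4 and 48.2. In NDFIP2, an adaptor of ubiquitin ligases, the control peak of 150 bp at 71.2 met a knockdown peak of 25 bp at 10.9. In CANX, the chaperone calnexin, the same 125 bp interval scored 70.3 and 18.8. INTS8, an Integrator subunit, had control and knockdown top scores of 55.6 and 12.0.

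High-scoring peaks without a counterpart were found in both lists. In the control list the highest was in YWHAH, which encodes the 14-3-3 protein eta, at chr22:31957135-31957259 with a score of 188. Its 3 control gene-end peaks lie within 1000 bp, and the knockdown list has no narrow peak in the gene. Next came PLCB4, a phospholipase C (69.3), SF3B1, a core splicing factor (64.4), PRKCE, a protein kinase C (61.4), BEND6 (54.5), MAN1A2, a mannosidase of the secretory pathway (52.1), and the zinc finger genes ZNF713 (48.6) and ZNF674 (48.0). SF3B1 had 6 and PLCB4 1 narrow knockdown peak elsewhere in the span, and PRKCE, BEND6, MAN1A2, ZNF713 and ZNF674 none. In the knockdown list the highest were in KIF23, a kinesin of cell division (55.2), TNRC6A, a scaffold of microRNA silencing (52.8), the integrin gene ITGAV (51.9), CACNA2D1, a calcium channel subunit (51.7), MMS19, a factor of iron-sulfur protein assembly (48.5), FEZ2 (39.3), the zinc finger gene POGZ (38.9) and CALD1, the actin-binding caldesmon (38.7). Most of these genes carried control peaks too: KIF23, TNRC6A, CACNA2D1, MMS19 and POGZ had 1 to 3 control gene-end peaks, ITGAV and CALD1 had 2 narrow control peaks each further up, and FEZ2 had none.

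Gene groups were described by their counts alone, beside those of all protein-coding genes, where 2836 (14.1%) of 20052 had a control and 1930 (9.62%) a knockdown gene-end peak. Cytosolic ribosomal protein genes had 14 and 15 peaks, in 12 (15.2%) and 14 (17.7%) of 79 genes. RPS2 had 1 identical interval in both lists, chr16:1962058-1962282, with scores of 27.6 and 85.1. RPL11 had 1 shared peak, at 31.6 and 13.9, and RPS16 1 shared peak, at 11.5 and 27.1. Translation factors had 27 control and 29 knockdown peaks in 15 and 13 of 41 genes, among them EIF3C (3 and 3), EEF1G (1 and 1) and EIF6 (0 and 1). The EIF6 knockdown peak is shared, because a control peak of 7445 bp covers it. Replication-dependent histone genes, whose mRNAs end in a stem-loop and not a poly(A) tail, had 2 peaks in each list among 52 genes, and the peak of H4C14 was shared.

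Cleavage, polyadenylation and poly(A) tail factors had 26 control and 20 knockdown peaks in 12 and 14 of 36 genes, with 9 shared on each side. The poly(A)-binding protein gene PABPC4 had 2 and 2, PABPC1 1 and 2, and PAN3, a subunit of a deadenylase, 6 and 0. RNA-binding proteins of mRNA ends had 69 control and 22 knockdown peaks in 27 and 12 of 44 genes. In 22 of these genes there were more control gene-end peaks and in 3 more knockdown ones, beside 1891 and 943 over all genes. The rest of the group's spans held more control narrow peaks too, 99 against 66. QKI, which binds introns and 3′ ends of mRNAs, had 9 control and 2 knockdown peaks. Both knockdown peaks overlapped a control peak, and the highest control peak, chr6:163564656-163564905 at 42.6, was unshared. ELAVL2, a neuronal member of the Hu family, had 8 and 0, TNRC6A 3 and 3, and UPF1, the helicase of nonsense-mediated decay, 1 and 2. The median span of the genes with a gene-end peak was 104579 bp in this group, 47738 bp among the cleavage and tail factors and 61377 bp over all genes, and the part of gene length in these counts was not tested.

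Actin and adhesion genes had the largest knockdown surplus of any group, 60 peaks against 46 in 24 and 20 of 41 genes. The rest of their spans held more knockdown peaks too, 165 against 136. The group's end shares were close, 25.3% in the control and 26.7% in the knockdown list. In 16 genes there were more knockdown gene-end peaks and in 7 more control ones, beside 943 and 1891 over all genes. Of the group's 46 control gene-end peaks 40 were shared, beside 1708 of 5609 over all genes. ACTN1, the crosslinker alpha-actinin, had 3 control and 4 knockdown peaks, 3 of them at identical bounds, with top scores of 43.2 and 85.5, and FLNA, filamin A, had 4 and 5. The fifth knockdown peak of FLNA lies on the opposite strand at the annotated start of the gene, so at its annotated end the counts are 4 and 4. Secretory pathway and chaperone genes had 17 and 17 peaks, with PDIA3 at 2 and 1 and HSP90B1 at 1 and 2. The strand of PDIA3 was not known here, and its peaks lie at opposite ends of the span. The shared pair is on the minus strand and the unshared control peak (score 32.9) on the plus strand. They cannot all be at the annotated end of PDIA3. Glycolysis genes had 14 and 11, with PFKM and SLC2A1 both at 2 and 1. Immediate early and other short-lived mRNAs had 14 and 11. Among them the chemokine CXCL8 had the same interval in both lists at scores of 20.7 and 20.7, the phosphatase gene DUSP1 had 2 and 1 peaks and the kinase gene SGK1 2 and 4.

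**Figure D5:**
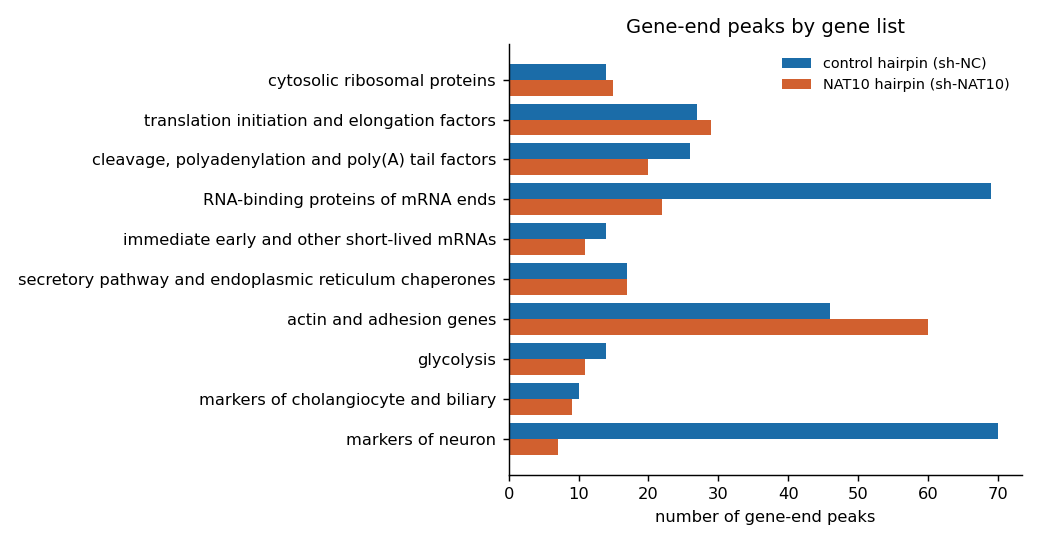
Number of narrow gene-end peaks in each gene group with at least 10 such peaks in both lists together, control and knockdown side by side, as bars from 0. The secretory pathway has 17 and 17 peaks and the actin and adhesion genes 46 and 60, and the RNA-binding proteins of mRNA ends (69 and 22) and the neuronal markers (70 and 7) differ most.

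Markers of cell types were read as a check of the label. Of 12 biliary markers 3 had gene-end peaks in both lists, with 10 control and 9 knockdown peaks, among them KRT8, a keratin of simple epithelia, at 6 and 6, and ANXA4 at 3 and 1. Over the whole span 9 of the 12 had a narrow peak in each list, and among those with none were EPCAM and CFTR. None of 8 hepatocyte markers had a gene-end peak. Of 18 neuronal markers, 14 had control gene-end peaks (70 peaks) and 4 had knockdown ones (7 peaks, among others in SNAP25, STMN2 and SCN2A), and in the rest of their spans there were 52 and 2 narrow peaks. SCN2A, a sodium channel, had 9 and 1, MAP2 and GABRB2 7 and 0 each, CAMK2A, a synaptic kinase, 4 and 0, and SNAP25, a synaptic vesicle fusion protein, 3 and 3. Over the whole span 16 of the 18 had a narrow control peak and 5 a narrow knockdown peak, and RBFOX3 and GRIN1 had neither. Astrocyte markers had 8 and 0 gene-end peaks, in SLC1A2 and GJA1. AQP4 and SLC1A3 had control peaks only in the rest of their spans, 2 and 1, and GFAP and ALDH1L1 had no narrow peak in either list. Oligodendrocyte markers had 1 and 0, in MBP. CNP had 1 control peak in the rest of its span, and MOG, MOBP and MAG had no narrow peak in either list. Fibroblast markers had 3 and 0, in SPARC and COL1A2, and immune markers 1 and 2, in LYZ and PTPRC.

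The neural markers account for 72 of the 2314 surplus control peaks (3.11%), and 7 of the 113 genes with a surplus of 5 or more are among them. Without these markers the end shares were 30.4% and 22.5%, and sharing was 30.8% and 50.4%. A peak list does not give expression, and in bulk RNA fewer cells of a type and less RNA per cell cannot be told apart. The part of these markers, and of the genes not on the lists that are expressed with them, in the counts of long genes was not tested.

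NAT10, the gene that the hairpin targets, had no gene-end peak in either list, with 3 control and 4 knockdown narrow peaks in the rest of its span. Peak counts do not measure its RNA level, so the knockdown was not checked here. CHAF1A, a chromatin assembly factor gene that the study also assayed by RT-qPCR, had none at its end, with 10 control and 4 knockdown narrow peaks elsewhere.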

How the data were processed

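RBE cells with sh-NC or sh-NAT10 were profiled by acRIP-seq with 3 immunoprecipitates and 3 inputs each. The submitters' processing notes name fastp (0.20.1), Bowtie2 (2.4.1) and the build hg38. How peaks were called, at which threshold, with or without inputs and from pooled or single replicates is not stated in the sources at hand. Each arm has 1 deposited list, with the authors' score per peak of unstated scale (0 and infinity occur) and, as another column, the peak's block length, equal to its width. Read depth is unknown. The list that is not named for the control was taken as the knockdown list.

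Gene spans came from RefSeq (GRCh38.p14), which gives no exons. Strand, from a RefSeq table of gene starts, was known for 15841 of 20052 protein-coding genes. Overlap meant at least 1 bp on the same strand. Intervals of shares are 95% Wilson intervals, and those of differences between shares are 95% normal approximations. The position and overlap steps were tested on simulated data with known answers. Members, gene lists and the rule for named genes (8 genes per ranking by peak number or by finite score of unshared or shared peaks, up to 3 per gene list, NAT10 and CHAF1A) were chosen with earlier results of these data known. Python 3.11.15, NumPy 2.4.6, pandas 2.3.3, SciPy 1.17.1 and matplotlib 3.10.9 were used. Other end windows, width and score limits, overlap rules, strand rules and gene sets were tried. Some genes that the rule names are left out of the text.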

Additional observations from a re-analysis of the deposited data

How the results depend on the processing

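No paired analysis was possible because the deposited lists carry no replicate columns. Over 17 settings, 118 values were recomputed, of which 64 stayed within the interval of the reported value, 53 left it and 1 turned its sign. The control end share was higher in 13 of 13 settings that change it (difference 2.47 to 8.18 percentage points, 8.03 as reported), knockdown sharing was higher in 17 of 17, sharing of control ends was below the rest in 17 of 17, and the share of genes without a counterpart was higher for the control list in 12 of 12. All settings reuse the same peaks. Overlap pairs peaks of both lists, so the list with more gene-end peaks tends to have the lower shared percentage. The direction between the lists, for sharing and for genes without a counterpart, thus largely restates the control surplus and is no separate result. With the last 2000 bp as the end, sharing of control ends differed from the rest by -1.0 points, with an interval of -2.78 to 0.75. The settings that leave out neural markers or long genes, count narrow peaks only or allow a gap were chosen after seeing the data. Depth and replicate spread are unknown, so small gaps between the lists were not weighed. In each pair below the control value stands first, and the reported values are end shares of 30.6% and 22.5%, sharing of 30.5% and 50.4%, differences from the rest of -15.5 and 1.0 points, and genes without a counterpart of 53.6% and 31.9%.

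With the last 5% of the span as the end, end shares were 20.2% and 12.9%, genes without a counterpart 60.4% and 35.3%, control sharing 25.6% and its difference from the rest -19.5. With the last 20%, end shares were 44.2% and 37.7%, control genes without a counterpart 47.1%, control sharing 34.9% and its difference -11.2. With the last 2000 bp, end shares were 20.3% and 17.9%, sharing 40.4% and 57.7%, the differences -1.0 and 9.8, and control genes without a counterpart 51.5%. A width limit of 500 bp gave end shares of 31.5% and 23.4%, and 2000 bp gave 29.4% and 21.7% with 51.6% of control genes without a counterpart. Scores of 20 or more in both lists gave end shares of 22.6% and 15.2%, sharing of 17.1% and 23.8%, and genes without a counterpart of 81.8% and 74.1%. Under that setting the knockdown difference from the rest turned from 1.0 to -2.5, and the cause was not tested. With the control list shortened by score to the number of narrow knockdown peaks, sharing was 33.2% and 46.0%, and genes without a counterpart 51.5% and 37.5%. Keeping 1 peak per gene gave end shares of 27.7% and 19.8% and knockdown sharing of 47.4%. Asking for 50% of the peak to be covered gave sharing of 26.9% and 44.8%, and overlap on either strand gave 31.9% for the control list. Counting narrow peaks of the other list only gave sharing of 27.3% and 46.7% and differences of -10.9 and 3.2. A gap of up to 100 bp gave sharing of 34.7% and 58.0% and a control difference of -17.4. Spans of up to 100000 bp gave end shares of 23.9% and 20.4%, sharing of 41.6% and 53.3%, a control difference of -8.8, and genes without a counterpart of 49.2% and 34.1%.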

Other observations

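A few gene-end peaks lie on the strand opposite to their gene. Where the gene's strand was known, 29 of 4662 control peaks (0.622%) and 29 of 2765 knockdown peaks (1.05%) did so, against 2.45% and 2.38% of the other narrow peaks. Because position was read in the direction of the peak, these peaks lie at the annotated start of the gene. Several recur at the same bounds in both lists. The highest-scoring is in IRS2, an adaptor of insulin signalling, at chr13:109785831-109785930 with scores of 54.9 and 58.6. The receptor kinase gene AXL has one at chr19:41221991-41222051 with scores of 32.5 and 37.0, and the ubiquitin ligase gene RNF10 one at chr12:120534384-120534408 with scores of 14.7 and 16.6. In TPT1 the peaks share their first base and score 44.4 and 16.4. Restricting all peaks to the annotated strand left the end shares at 31.1% and 22.9%. IRS2, AXL, RNF10 and TPT1 were chosen after their values were seen.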
